A study of Mus musculus with 3 samples.

Results

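The genes examined here were 10 members of the bone morphogenetic protein (BMP) pathway, namely the ligands *Bmp2*, *Bmp4* and *Bmp7*, the secreted antagonists *Grem1*, *Nog* and *Fst*, the inhibitory Smad gene *Smad6*, and the targets *Id1*, *Id2* and *Id3*. They were picked by name, and a probe was assigned to a gene when the RefSeq accession printed for it in the array files matched the gene's symbol. All 10 were found among 22911 named genes, with 1 probe each except *Bmp4*, which had a second probe. The study compared 3 murine cell lines of female BALB/c origin. Colon26 is the parental colon adenocarcinoma line, LuM1 is its subline with high metastatic capacity, and NM11 is its subline with low metastatic capacity. No treatment was applied, and RNA was taken from whole cultures grown for 3 days in serum-containing medium. Each line was measured on 1 array, so there was no replicate, no test between lines and no p-value. The line, its culture and its array cannot be told apart.

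BMPs are secreted dimers of the TGF-beta superfamily. They bind complexes of type I and type II receptor kinases, which phosphorylate Smad1, Smad5 and Smad9, and these enter the nucleus with Smad4 and switch on genes that include the *Id* genes and *Smad6*. Antagonists such as gremlin 1 and noggin trap the ligands outside the cell, follistatin (*Fst*) traps activins most tightly and some BMPs as well, and Smad6 closes a negative feedback loop inside the cell. In the intestine, BMP signals are known to restrain the crypt stem cells and to favour differentiation. Id proteins lack a DNA-binding region and sequester the E proteins, transcription factors that bind E-box sequences.

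The promoters of *Id3* and *Id2* are printed here, the only *Id* members with a promoter entry, and *Id1* had none. These closely related targets also differed most among the *Id* members across the lines. Capitals mark the Smad-binding element core AGAC, or GTCT where it lies on the other strand. Both are the 250 bases before the annotated start, 5′ to 3′ on the gene's strand, from RefSeq on GRCm38.p6. *Id3* is at chr4:136143572-136143821 on the + strand and *Id2* is at chr12:25096093-25096342 on the - strand.
Id3: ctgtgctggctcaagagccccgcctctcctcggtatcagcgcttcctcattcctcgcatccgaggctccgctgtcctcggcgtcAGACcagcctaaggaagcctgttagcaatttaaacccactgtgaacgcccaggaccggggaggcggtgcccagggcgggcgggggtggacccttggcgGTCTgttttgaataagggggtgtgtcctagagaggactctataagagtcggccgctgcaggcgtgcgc
Id2: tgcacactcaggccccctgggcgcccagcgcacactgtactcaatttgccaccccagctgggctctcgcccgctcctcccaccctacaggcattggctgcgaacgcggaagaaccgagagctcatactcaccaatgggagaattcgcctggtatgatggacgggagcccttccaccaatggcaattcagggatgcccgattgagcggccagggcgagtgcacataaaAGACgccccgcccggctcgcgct

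The *Id3* window held 2 copies of the core, starting 166 and 68 bases before the start, and the *Id2* window held 1, starting 23 bases before it. At least 1 copy was present in 82.9% of 32851 mouse promoter windows of the same length, and at least 2 copies in 54.9%. The GC-rich Smad element GGCGCC, which reads the same on both strands, was found in *Id2* at 231 bases before the start and not in *Id3*, against 9.59% of all windows. The E-box CANNTG was also found in *Id2*, at 196 bases, and not in *Id3*, against 66.2% of all windows. No pair of these motif matches in the windows shown overlapped. Promoter entries were found for 5 of the 10 members. The other 3 were *Bmp4*, with 1 core, *Smad6*, with 1 core, and *Grem1*, with 4 cores and 1 GGCGCC, and 4 or more cores were present in 12.5% of all windows. These matches describe letters in a window and not bound sites.

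Values below are signals of the Cy3 dye after background correction by the scanner software, scaled so that the 75th percentile of every array was the same. The unit is arbitrary, and levels are compared only between lines for the same probe, never between genes. Sums of marker signals given below add probes of different genes and are not levels. The error after ± is the scanner software's own estimate for the spot and does not cover differences between cultures. A ratio was called when it, or the smallest ratio that a dim probe allowed, reached 2-fold. A ratio is described as within the scanner error when its log2 value was smaller than 1.96 times the combined error of both spots. A lower signal may reflect fewer cells of a kind or less RNA in each cell, and these cannot be told apart in whole cultures.

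Of the members, 9 of 10 were well above background on all 3 arrays. Over all probes, named or not, 49.9% to 53.8% were so on a single array. Against Colon26, 4 were at least 2-fold higher in LuM1 (*Bmp2*, *Id1*, *Id3* and *Fst*), where 12.9% of 14353 named genes tested were, and 0 were at least 2-fold lower, against 11.7%. In NM11, 3 were higher than in Colon26 (*Id1*, *Id3* and *Fst*), where 8.17% of 14109 genes were, and 1 was lower (*Bmp2*), against 7.74%. Between the sublines, 1 member was higher in LuM1 than in NM11 (*Bmp2*), where 11.1% of 14415 genes were, and 2 were lower (*Bmp4* and *Fst*), against 8.50%. *Id1*, *Id3* and *Fst* were thus high in both sublines, and *Bmp2* moved in opposite directions in them. The median log2 ratio of the 9 measured members was 0.25 for LuM1 over Colon26, 0.31 for NM11 over Colon26 and -0.06 for LuM1 over NM11. Over all named genes the medians were -0.10, -0.01 and -0.09.

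**Figure D1:**
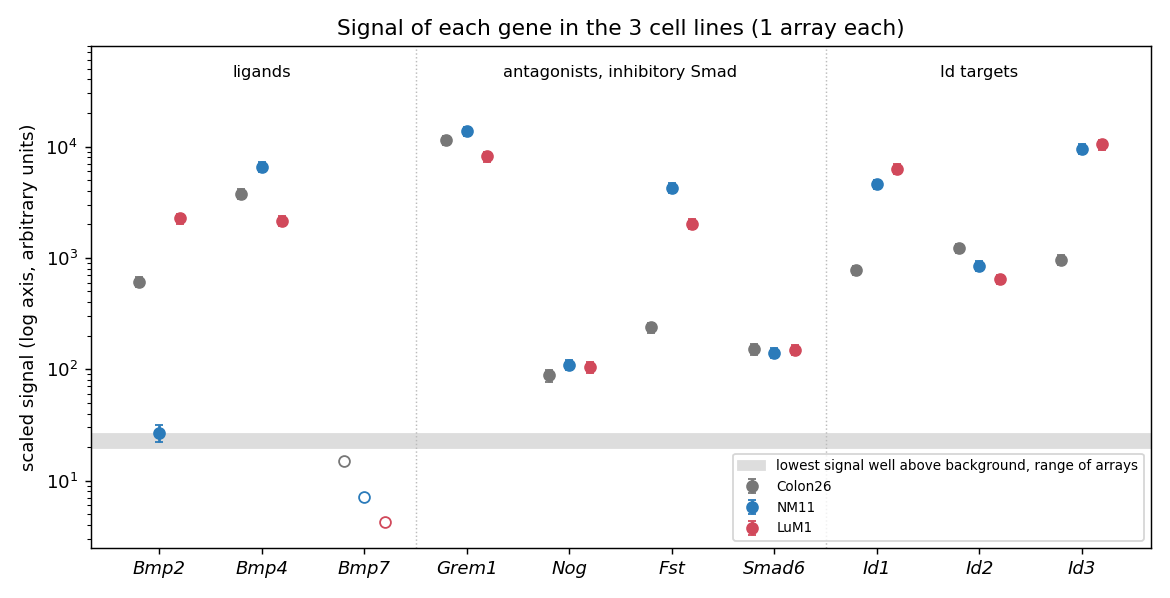
Scaled signal (log axis, arbitrary units) of each of the 10 genes in Colon26, NM11 and LuM1, 1 array per line. Bars are the scanner's error estimate, open circles are spots not well above background and the grey band spans the lowest signals well above background on the 3 arrays. *Bmp2* ran from 26.9 in NM11 to 2260 in LuM1, while *Id1*, *Id3* and *Fst* were lowest in Colon26.

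Among the ligands, *Bmp2* (NM_007553), a potent inducer of Smad1 and Smad5 phosphorylation and of bone formation, separated the 3 lines most widely of the 9 measured members. Its signal was 611 ± 61.3 in Colon26, 2260 ± 226 in LuM1 and 26.9 ± 4.86 in NM11. The order was therefore LuM1, Colon26, NM11, and each step was larger than the scanner error. LuM1 was 3.70-fold higher than Colon26 (log2 ratio 1.89) and NM11 was 22.7-fold lower than Colon26 (log2 ratio -4.50). Between the sublines the ratio was 83.9-fold. The NM11 spot was well above background but close to the lowest such signal on its array, 19.6, so the size of both ratios that use it rests on a dim spot. With a different background correction (normexp) they were smaller, at log2 values of 4.65 for LuM1 over NM11 and -2.84 for NM11 over Colon26.

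*Bmp4* (NM_007554), the BMP ligand that is also known to act on colonic stem cells, showed the reverse order. Its brighter probe read 3741 ± 374 in Colon26, 2140 ± 214 in LuM1 and 6548 ± 655 in NM11. LuM1 was the lowest line and NM11 the highest, and all 3 ratios were beyond the scanner error. Only the ratio between the sublines was called, with LuM1 3.06-fold lower than NM11. LuM1 was 1.75-fold lower than Colon26, and NM11 was 1.75-fold higher than Colon26. The second probe read 1036 ± 104, 589 ± 59.1 and 1931 ± 193 in the same order of lines, and gave 3.28-fold lower for LuM1 than for NM11. The probes of *Bmp4* thus placed the lines in the same order with similar ratios.

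*Bmp7* (NM_007557), a ligand known from kidney development, was not well above background on any array. Its signals were 15.0 ± 5.72 in Colon26, 4.23 ± 4.25 in LuM1 and 7.09 ± 4.10 in NM11. No ratio between lines could be given for it.

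The secreted antagonists did not move as a group. *Fst* (NM_008046) read 238 ± 24.4 in Colon26, 2027 ± 203 in LuM1 and 4252 ± 425 in NM11. Both sublines were far above Colon26, and NM11 was the highest. The ratio over Colon26 was 8.53-fold in LuM1 (log2 ratio 3.09) and 17.9-fold in NM11 (log2 ratio 4.16). LuM1 was 2.10-fold lower than NM11 (log2 ratio -1.07), a value close to the 2-fold threshold that was under it with 5 of 11 other settings.

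*Grem1* (NM_011824) encodes gremlin 1, which in the gut is made mainly by stromal cells around the crypt base. It gave a bright signal in every line, at 11405 ± 1141 in Colon26, 8139 ± 814 in LuM1 and 13687 ± 1369 in NM11. LuM1 was the lowest line, at 1.40-fold below Colon26 and 1.68-fold below NM11, both beyond the scanner error and below 2-fold. The ratio of NM11 to Colon26 was 1.20-fold and within the scanner error, and its direction turned when *Hprt* set the scale.

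*Nog* (NM_008711), the gene for noggin, was dim and nearly level, at 87.9 ± 10.7 in Colon26, 104.6 ± 11.54 in LuM1 and 109.3 ± 11.8 in NM11. All 3 ratios, with log2 values of 0.25, -0.06 and 0.31 for LuM1 over Colon26, LuM1 over NM11 and NM11 over Colon26, were within the scanner error.

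*Smad6* (NM_008542) read 151 ± 16.1 in Colon26, 150.1 ± 15.6 in LuM1 and 141 ± 14.6 in NM11. The lines could not be ordered, since all 3 log2 ratios, at -0.01, 0.09 and -0.10, were within the scanner error. Its spot lay in an area of the Colon26 array where 9.65% of the surrounding spots were well above background on that array alone, against 1.89% over the array. The part of that area in the *Smad6* value was not tested, and without such areas *Smad6* had no value.

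The 3 *Id* genes, whose products block E proteins, did not follow one pattern. *Id1* (NM_010495) read 773 ± 77.5 in Colon26, 6296 ± 630 in LuM1 and 4568 ± 457 in NM11. Both sublines were well above Colon26. The ratio over Colon26 was 8.15-fold in LuM1 (log2 ratio 3.03) and 5.91-fold in NM11 (log2 ratio 2.56). LuM1 was 1.38-fold above NM11, which exceeded the scanner error by a small margin.

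*Id3* (NM_008321) read 955 ± 95.7 in Colon26, 10439 ± 1044 in LuM1 and 9488 ± 949 in NM11. It was again low in the parental line and high in both sublines. The ratio over Colon26 was 10.9-fold in LuM1 (log2 ratio 3.45) and 9.93-fold in NM11 (log2 ratio 3.31). The sublines, with a log2 ratio of 0.14, lay within the scanner error of each other.

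*Id2* (NM_010496) ran the other way, at 1223 ± 122 in Colon26, 643 ± 64.5 in LuM1 and 849.9 ± 85.1 in NM11. Colon26 was the highest line, and no ratio reached 2-fold. LuM1 was 1.90-fold below Colon26, NM11 was 1.44-fold below Colon26 and LuM1 was 1.32-fold below NM11. The last of these turned to 0.19 on the log2 scale when *Hprt* set the scale. Of the *Id* genes whose promoter is printed above, *Id3* was therefore called against the parental line in both sublines and *Id2* in neither.

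**Figure D2:**
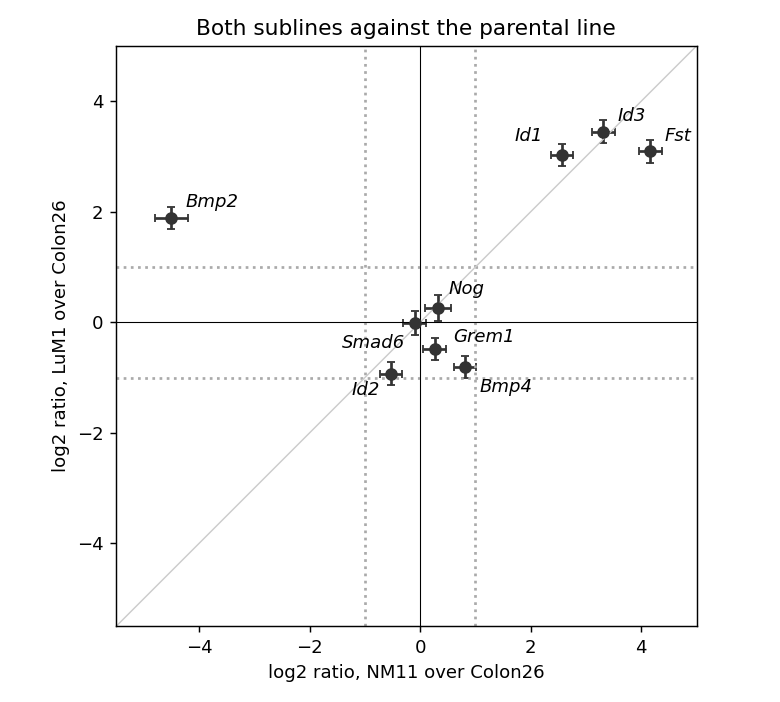
Log2 ratio over Colon26 in NM11 (horizontal) and LuM1 (vertical) for the 9 measured genes, with bars for the scanner's error. Dotted lines mark 2-fold and the diagonal marks equal ratios; both axes use the same Colon26 array. *Id1*, *Id3* and *Fst* lie past 2-fold in both sublines, and *Bmp2* lies at 1.89 in LuM1 and -4.50 in NM11.

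The ratios of both sublines use the same Colon26 array, so an error in that array would move both. *Id1*, *Id3* and *Fst* shared 1 feature, a low parental value. Between the sublines, *Id1* and *Id3* were within 2-fold, and *Fst* was 2.10-fold lower in LuM1 than in NM11. The ratio between the sublines does not use the Colon26 array, so it cannot show whether the parental values were in error.

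Other genes of the pathway were taken from lists, of which 60 of 61 genes were found on the array. In LuM1 against Colon26, 9 of 40 tested were at least 2-fold higher and 6 were lower, against 12.9% and 11.7% of all named genes tested. In NM11 against Colon26, 7 of 41 were higher and 4 lower, against 8.17% and 7.74%. In LuM1 against NM11, 6 of 43 were higher and 4 lower, against 11.1% and 8.50%. The median log2 ratios of the list genes were 0.02, 0.12 and -0.17 in these comparisons. The 19 genes called in at least 1 comparison are described by role. The same shares are the background for the counts by role below.

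Among 11 other BMP ligands, 9 were not well above background on any array. *Gdf5*, a ligand of joint development, read 148.6 in LuM1 and was not well above background in the other lines, so that LuM1 was at least 5.63-fold higher than Colon26 and at least 7.59-fold higher than NM11. With normexp the limit against Colon26 was a log2 value of 0.91, below 2-fold. *Bmp8a* was measured in all 3 lines at 198 to 246, with no ratio beyond the scanner error.

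Among 10 receptors and co-receptors, 9 were measured on all arrays and 3 were higher in LuM1 than in Colon26, with none lower. *Eng*, the gene for the co-receptor endoglin, read 133 in Colon26, 1720.4 in LuM1 and 76.2 in NM11, and LuM1 was 12.9-fold above Colon26 and 22.6-fold above NM11. *Acvrl1*, the type I receptor for BMP9 and BMP10, read 181, 876 and 184, and LuM1 was 4.83-fold above Colon26. Both were therefore high in LuM1 only, and both are best known from endothelium. Of 4 endothelial markers, *Pecam1* was above background, at 51.3 to 78.3, and *Cdh5*, *Kdr* and *Tek* were at background on every array. Which cells gave the *Eng* and *Acvrl1* signals was not tested.

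The main BMP receptor genes changed less than 2-fold. *Bmpr1a* read 1173, 1207 and 989 and *Bmpr2* read 1012, 1793 and 1131 in Colon26, LuM1 and NM11. *Acvr2b*, a type II receptor, read 1345, 957 and 459 and was 2.93-fold lower in NM11 than in Colon26 on its brighter probe. Its dim second probe was not well above background in NM11 and gave only a limit, a log2 value of -0.91, below 2-fold. *Rgmb*, a co-receptor, was 2.04-fold lower in NM11 than in Colon26 at dim signals of 42.7 and 87.3, and its second probe gave a log2 ratio of -0.42, within the scanner error. With the mean over probes the *Rgmb* ratio was -0.72 on the log2 scale, below 2-fold. The co-receptor *Rgma* was 2.12-fold higher in LuM1 and 2.45-fold higher in NM11 than in Colon26 on its brighter probe, but its second probe gave log2 ratios of -0.05 and 0.05, and the mean over probes was below 2-fold in both.

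Among 11 Smads and their regulators, 10 were measured on all arrays. *Smad5*, which carries the BMP signal, read 1831 in Colon26, 3874 in LuM1 and 3723 in NM11, which was 2.12-fold and 2.03-fold above the parental line, the latter a value below 2-fold under 6 of 11 other settings. Its partners *Smad1* and *Smad4* moved less than 2-fold in every comparison. *Smad7*, the inhibitory Smad of the TGF-beta and BMP pathways, read 527, 192 and 459.5 and was 2.75-fold lower in LuM1 than in Colon26, unlike its relative *Smad6*. *Ppm1a*, a phosphatase reported to act on Smads, was 2.35-fold lower in LuM1 than in Colon26 on its brighter probe, and its second probe gave a log2 ratio of 0.03. The *Ppm1a* ratio was below 2-fold with the mean over probes.

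Among 15 other antagonists and extracellular modulators, 10 were tested in LuM1 against Colon26, of which 2 were higher and 4 lower. *Bambi*, a membrane pseudoreceptor and a known BMP target, was not well above background in Colon26 and read 366 in LuM1 and 636 in NM11. It was at least 13.8-fold and at least 24.1-fold above Colon26. With normexp these limits were smaller, at log2 values of 2.21 and 2.91. *Nbl1*, a ligand trap of the gremlin family, read 91.5, 172 and 284 and was 3.11-fold above Colon26 in NM11. *Sost*, the gene for sclerostin, was measured in LuM1 alone, at 87.2, at least 3.30-fold above Colon26, a limit that was below 2-fold with normexp.

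The other 4 modulators called were lower in LuM1 than in Colon26. *Bmper*, a chordin-like modulator of BMP activity, read 2396 in Colon26, 330.5 in LuM1 and 5126 in NM11. LuM1 was 7.25-fold below Colon26 and 15.5-fold below NM11. The follistatin relatives ran against *Fst* in LuM1, since *Fstl3* read 2069, 412 and 687 and *Fstl1* read 8285, 3067 and 8960 in Colon26, LuM1 and NM11. *Fstl3* was 5.02-fold and *Fstl1* 2.70-fold lower in LuM1 than in Colon26, and the *Fstl1* log2 ratio was -0.99 with the deposited values. In NM11, *Fstl3* was also 3.01-fold lower than in Colon26, and *Fstl1* was 1.08-fold higher, within the scanner error. *Crim1*, a transmembrane BMP-binding protein, was 2.79-fold lower in LuM1 and 2.57-fold lower in NM11 than in Colon26.

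Of 10 other BMP-responsive genes, 6 were tested in LuM1 against Colon26, with 2 higher and 0 lower, and 9 in NM11 against Colon26, with 2 higher and 0 lower. *Atoh8*, a transcription factor gene, read 29.7 in Colon26, 84.0 in LuM1 and 127.5 in NM11, and was 2.83-fold and 4.30-fold above the parental line. With normexp the *Atoh8* ratios were 0.61 in LuM1 and 1.05 in NM11 on the log2 scale. Both rest on a Colon26 spot close to the lowest signal well above background on that array, 26.4. *Hey1*, which also responds to Notch, read 422 in NM11 and was not well above background in the other lines, so that NM11 was at least 15.97-fold above Colon26. With normexp the *Hey1* limit was smaller, at a log2 value of 2.48. *Gata2* was 3.15-fold higher in LuM1 than in Colon26, at 1607 against 511, and its spot lay in an area like that of *Smad6*, so that it had no value without such areas. *Msx1*, *Msx2*, *Dlx2* and *Runx2*, further genes that BMPs are known to induce, stayed under 2-fold in all comparisons. *Id4*, the remaining *Id* gene, was above background only in NM11, at 31.8.

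The genes of the E proteins that Id proteins bind were measured in all lines and none was called. *Tcf3* read 1562, 978 and 1701 in Colon26, LuM1 and NM11, *Tcf4* read 6399, 9398 and 8907, and *Tcf12* read 1243, 878 and 1539. The *Tcf12* spot lay in an area of the Colon26 array like that of *Smad6*. A dimmer *Tcf12* probe outside such areas read 719, 552 and 884.

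**Figure D3:**
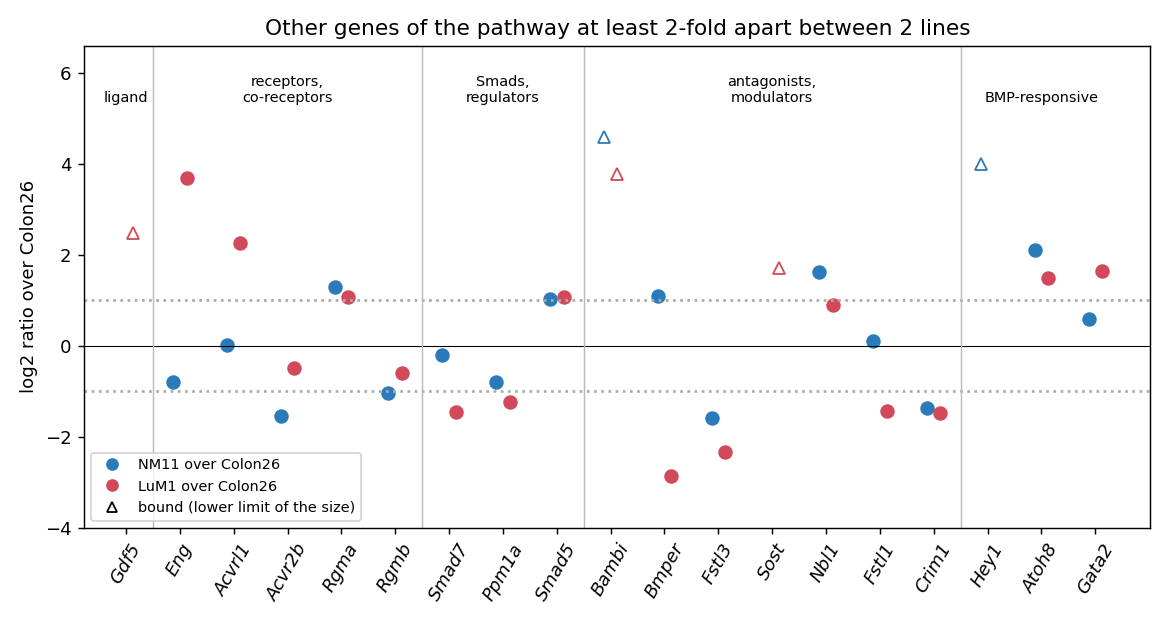
Log2 ratio over Colon26 in NM11 and LuM1 for the 19 other pathway genes called between any 2 lines, grouped by role. Triangles are lower limits where Colon26 was not well above background, dotted lines mark 2-fold, and genes without a ratio in a subline have no point there. *Eng* and *Acvrl1* lie high in LuM1 only, and *Bambi* and *Atoh8* lie above 2-fold in both sublines.

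Some marker genes of cell types also differed between the lines. Of 10 colon epithelial markers, 6 were at background on every array, *Cdh1*, *Krt18* and *Vil1* among them. *Epcam* was above background only in LuM1, at 28.0. *Krt8*, *Krt20* and *Cdx2* were measured in every line and moved in different directions. *Krt20* read 651, 54.5 and 157 and *Cdx2* read 443, 232 and 167 in Colon26, LuM1 and NM11, while *Krt8* read 28.9, 107.6 and 37.1. The summed signal of the measured markers was 1123, 422 and 362. Each sum covers only the markers above background in that line, so the genes in it can differ between lines. Of 6 fibroblast markers, 4 were above background in Colon26 and 6 in each subline, with sums of 66026, 54291 and 118568. These sums reflect different genes, lying mostly in *Col1a2* in Colon26 and NM11 and in *Thy1* and *Dcn* in LuM1. *Thy1* and *Dcn* were at background in Colon26 and read 19560.0 and 27503 in LuM1 and 15416 and 9599 in NM11. *Pdgfra* was also lowest in Colon26, at 218, 3965 and 1286 in Colon26, LuM1 and NM11. *Col1a2* read 59896, 49.6 and 85275, lowest in LuM1. *Col1a1* was also lowest in LuM1, at 4918, 2247 and 6045, and *Pdgfrb* was level at 993, 966 and 947. The fibroblast markers thus did not move as a group. Of 5 leukocyte and macrophage markers, 3 were above background on every array, with sums of 5881, 12759 and 5225, and *Ptprc* and *Adgre1* were at background on every array. The rise of that sum in LuM1 lay mostly in *Cd68*, which was 30.5-fold higher in LuM1 than in Colon26. *Csf1r* was level at 682, 691 and 675, and *Itgam* was 1.36-fold higher in LuM1 than in Colon26 on its brighter probe and lower in LuM1 on its dim second probe. The spot of that second *Itgam* probe lay in an area of the Colon26 array like that of *Smad6*. The part of other cell types in the results was not tested.

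The calls on *Bmp2*, *Id1*, *Id3* and *Fst* against Colon26 kept their direction under every setting tried. Over these settings, LuM1 over Colon26 ranged from 2.93 to 3.47 for *Id1*, from 3.32 to 3.90 for *Id3*, from 2.78 to 3.54 for *Fst* and from 1.81 to 2.33 for *Bmp2* on the log2 scale. NM11 over Colon26 ranged from 2.08 to 2.60 for *Id1*, from 2.82 to 3.35 for *Id3*, from 3.67 to 4.19 for *Fst* and from -4.99 to -2.84 for *Bmp2*. These ranges compare ways of processing the same arrays and are not replicate error.

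**Figure D4:**
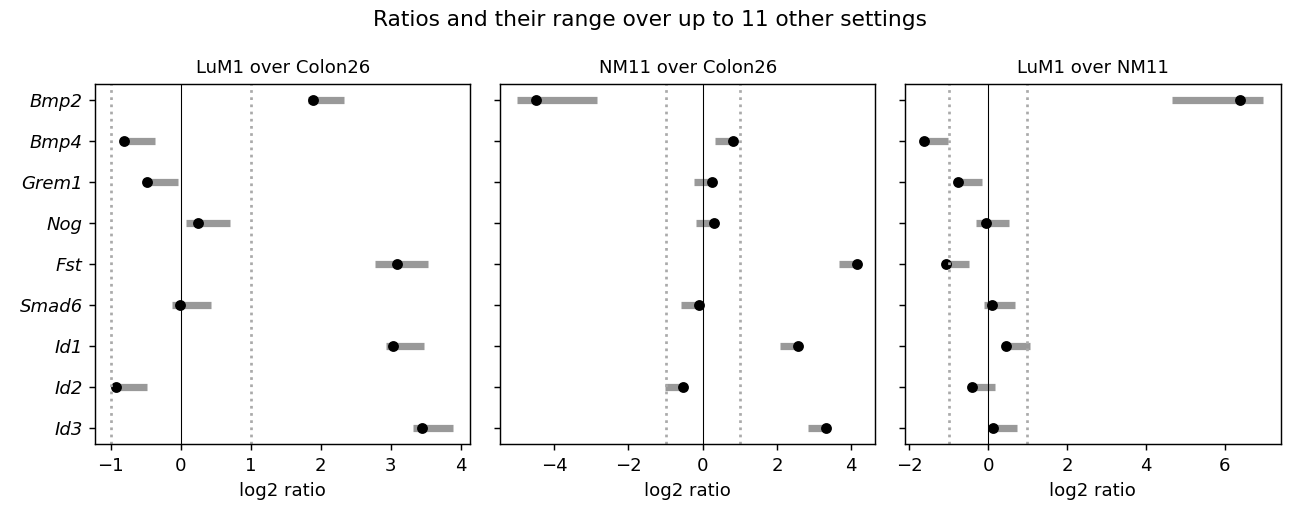
Log2 ratio of each measured gene in the 3 comparisons as reported (points) and its lowest and highest value over up to 11 other settings (bars). Dotted lines mark 2-fold. The bars of *Id1*, *Id3* and *Fst* over Colon26 stay past 2-fold, and those of *Nog* and *Smad6* span 0 or lie within 2-fold.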

How the data were processed

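Total RNA (0.1 µg per line) was labelled with Cy3 and hybridized to 1 Agilent mouse 8 × 60K array per line. The authors deposited the output of Feature Extraction 11.5.1.1 (version from the submitters' processing notes), whose processed signal is an intensity after background subtraction, with an error estimate and detection flags. They also deposited a table of intensity values, in which each array equalled the processed signal times 1 factor (0.654, 0.829 and 0.706 for Colon26, LuM1 and NM11). How the factor was set is not given in the sources used here.

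Control spots and spots flagged as outliers (74 to 137 per array) were left out, and spots of a probe were averaged. Arrays were brought to a common 75th percentile, which lay at 551.5 to 625 beforehand over non-control spots, outliers included. Well above background were 49.9% to 53.8% of 56605 probes, and 0 spots were saturated. Probes were named through RefSeq accessions (58.3% named), and the brightest probe stood for a gene. A dim probe was set to the lowest signal well above background on its array (19.6 to 26.4), unless its own signal was larger, and then gave a bound. The number of arrays limits the precision. Code for the calls was tested on simulated data with known changes. The members, lists and rules were chosen with earlier results of these data known. Other pathway genes were named when called in at least 1 comparison.

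Other settings were raw signals, the median of measured probes or *Hprt* as the scale, quantile normalization, limma 3.58.1 normexp with an offset of 50 on median signals, the deposited values, looser or no filters on dim probes, the mean of a gene's probes or the probe brightest in LuM1, leaving out areas of the Colon26 array rich in spots bright there alone, and a 4-fold threshold. Python 3.11.15, numpy 2.4.6, pandas 2.3.3, matplotlib 3.10.9 and R 4.3.3 were used.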

Additional observations from a re-analysis of the deposited data

Results flagged for a closer look

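*Bmp2* moved in opposite directions in the sublines relative to Colon26, with a log2 ratio of 1.89 in LuM1 and -4.50 in NM11. The difference was not tested, since each line had 1 array, and the NM11 spot was dim at 26.9.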

How the results depend on the processing

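No paired analysis was possible because each line had 1 array. The 11 called ratios of the members kept their direction under all settings tried, and 10 of the 16 uncalled ratios did. Members higher in LuM1 than in Colon26 numbered 3 at 4-fold (*Id1*, *Id3* and *Fst*), without *Bmp2*. Members lower in LuM1 than in Colon26 numbered 1 (*Bmp7*) when signals significantly above background or all signals were used. Members higher in LuM1 than in NM11 numbered 2 (*Bmp2* and *Id1*) with *Hprt* as the scale. Members lower in LuM1 than in NM11 numbered 1 (*Bmp4*) with no scaling, *Hprt*, quantile normalization, normexp or the deposited values, and 0 at 4-fold. Members lower in NM11 than in Colon26 numbered 2 with *Hprt* (*Bmp2* and *Id2*) and with either looser filter (*Bmp2* and *Bmp7*). The median of all measured genes moved by 0.45 for LuM1 over Colon26 and by 0.41 for LuM1 over NM11 (log2) with the deposited values, by 0.10, 0.59 and -0.49 with *Hprt* and by 0.11, 0.18 and -0.08 with no scaling, for LuM1 over Colon26, LuM1 over NM11 and NM11 over Colon26. A change of scale moves every ratio of a comparison alike. *Hprt* itself read 11101, 10351 and 15573 in Colon26, LuM1 and NM11. Of 36 called ratios of the other pathway genes, 20 stayed past 2-fold in the same direction under every setting, 16 were below 2-fold or had no value under at least 1, and 0 reversed. The median ratios of the pathway lists were recomputed 198 times under these settings, and 11 changed sign. Signals near background limit *Bmp2* in NM11 and *Bmp7* in all lines.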
